A study of Mus musculus with 17 samples.

Results

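Bone marrow cells grown in culture and labelled as the 0 h point of Oct4 induction were compared with the 2 other somatic cell types of the same study, embryonic fibroblasts and neural stem cells, each also labelled 0 h. The 3 arrays compared were TO_BMC_0 (bone marrow cells), TO_MEF_0 (mouse embryonic fibroblasts) and TO_NSC_0 (neural stem cells), out of 17 mouse arrays in all. A TO line carries Oct4 (gene Pou5f1), a pluripotency transcription factor, under tetracycline control, and each of the 3 arrays is labelled 0 h. The labels also call these 0 h arrays treated and do not name the compound, and they give no strain, sex, age, promoter or sorting step. Wild-type fibroblasts and neural stem cells at 0 h (Ctrl_MEF_0 and Ctrl_NSC_0), labelled untreated, served as a second array of each of those cell types, and no wild-type bone marrow array was among the samples. RNA levels were measured on Illumina bead arrays that carry 25697 probes, with 1 array per condition, so a difference between 2 arrays has no replicate check.

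Of the 25697 probes, 13236 had a detection p under 0.01 on at least 1 of the 3 arrays and were kept, 12486 of them with a gene symbol. Each gene was represented by its brightest probe over the 3 arrays, which gave 9151 genes kept out of 16593 with a probe. The bone marrow array detected 10704 probes, against 10231 on the fibroblast and 10573 on the neural stem cell array. The mean raw intensity was 584 on bone marrow cells, 408 on fibroblasts and 646 on neural stem cells, so the fibroblast array was the dimmest of the 3. Pou5f1 itself had a log2 level of 5.06 on bone marrow cells and was not detected there. It was detected at 8.44 on the transgenic fibroblasts, and was not detected at 5.08 on neural stem cells or at 5.02 on wild-type fibroblasts. TO_MEF_0 therefore cannot be taken as free of Oct4 expression, and counts with the wild-type lines in place of TO_MEF_0 and TO_NSC_0 are given where they differ by over 1.5 times. All levels below are normalized log2 values of 1 probe, and a level of one gene is never set against that of another. Where a probe was not detected, its fold is a lower bound, computed against the lowest signal detected on that array (5.38 to 5.69 on the log2 scale).

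Bone marrow is the site of adult blood formation. Stem and progenitor cells there give rise to granulocytes, monocytes, erythroid cells, megakaryocytes and lymphocytes, beside a stroma of fibroblast-like, bone, fat and vessel cells. The transcription factor PU.1 (gene Spi1) together with C/EBP factors drives the myeloid branch. Neutrophils store proteases and myeloperoxidase in primary granules that are made early, and add lactoferrin and other proteins to later granules as they mature. Macrophages are tissue phagocytes that carry complement C1q, Fc receptors and scavenger receptors.

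The promoters of 6 genes that were high on bone marrow cells are shown because all of them carry the same motif, GAGGAAGT, the core bound by PU.1. They are members of lists described below. C1qc is from the macrophage list, Mpo, Elane, Prtn3 and S100a8 from the neutrophil lists, and Pf4 from the megakaryocyte list. Pf4 kept its level on the later bone marrow arrays, where Ppbp and Itga2b of the same list fell. The 6 genes were chosen after their values were seen, and this form of the motif was chosen after the shares of 4 motifs, given below, had been compared. Each window holds 250 bases before and 50 bases after the RefSeq start of the gene in build GRCm38.p6, written 5′ to 3′ on the strand of the gene. Capitals mark the motif, which reads ACTTCCTC where it lies on the other strand.
C1qc (chr4:136892865-136893164, reverse strand): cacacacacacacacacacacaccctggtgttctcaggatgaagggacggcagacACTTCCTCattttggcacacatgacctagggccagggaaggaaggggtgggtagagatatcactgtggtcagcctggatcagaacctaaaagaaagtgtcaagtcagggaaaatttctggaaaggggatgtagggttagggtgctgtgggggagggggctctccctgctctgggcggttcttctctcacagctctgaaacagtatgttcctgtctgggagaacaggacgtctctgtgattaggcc
Mpo (chr11:87793534-87793833, forward strand): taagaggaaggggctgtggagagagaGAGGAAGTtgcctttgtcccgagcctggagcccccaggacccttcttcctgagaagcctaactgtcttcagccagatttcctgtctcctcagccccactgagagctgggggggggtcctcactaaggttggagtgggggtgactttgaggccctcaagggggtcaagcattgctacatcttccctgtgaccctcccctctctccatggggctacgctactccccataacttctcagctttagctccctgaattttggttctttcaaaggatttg
Elane (chr10:79886062-79886361, forward strand): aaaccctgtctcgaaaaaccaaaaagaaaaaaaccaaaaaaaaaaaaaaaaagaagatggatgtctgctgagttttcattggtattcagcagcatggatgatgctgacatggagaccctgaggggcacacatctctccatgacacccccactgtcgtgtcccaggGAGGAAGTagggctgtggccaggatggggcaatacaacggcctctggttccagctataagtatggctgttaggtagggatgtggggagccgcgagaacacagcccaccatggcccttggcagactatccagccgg
Prtn3 (chr10:79879417-79879716, forward strand): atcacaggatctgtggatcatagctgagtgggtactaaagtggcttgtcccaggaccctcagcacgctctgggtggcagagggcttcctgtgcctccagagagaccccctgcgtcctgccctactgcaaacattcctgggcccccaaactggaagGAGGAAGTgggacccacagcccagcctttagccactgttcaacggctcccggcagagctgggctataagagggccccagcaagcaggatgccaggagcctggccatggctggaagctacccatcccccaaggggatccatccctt
S100a8 (chr3:90668821-90669120, forward strand): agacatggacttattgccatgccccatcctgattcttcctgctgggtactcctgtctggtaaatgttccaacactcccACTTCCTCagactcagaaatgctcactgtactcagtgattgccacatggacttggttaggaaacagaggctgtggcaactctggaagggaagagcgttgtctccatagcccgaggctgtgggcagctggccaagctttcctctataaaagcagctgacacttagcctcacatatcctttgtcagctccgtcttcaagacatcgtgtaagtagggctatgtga
Pf4 (chr5:90772185-90772484, forward strand): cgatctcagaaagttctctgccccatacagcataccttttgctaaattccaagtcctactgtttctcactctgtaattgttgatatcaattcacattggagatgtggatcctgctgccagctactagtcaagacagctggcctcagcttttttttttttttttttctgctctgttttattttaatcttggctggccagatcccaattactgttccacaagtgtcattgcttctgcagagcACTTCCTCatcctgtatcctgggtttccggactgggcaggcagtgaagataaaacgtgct
Each of the 6 windows held 1 match. It lay 85 to 78 bases before the start in Elane and 95 to 88 bases before it in Prtn3, a pair of neighbouring protease genes on chromosome 10. In Mpo it lay 224 to 217 bases before the start, and in Pf4 10 to 3 bases before it.

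The share of promoters with this motif was higher among the genes that stood highest on bone marrow cells. Among genes at least 8-fold above both other cell types, 55 of 430 promoter windows (12.8%) held GAGGAAGT on either strand, against 98 of 3472 (2.82%) among genes within 2-fold of both. Genes 2- to 8-fold above both held it in 46 of 1016 windows (4.53%). Genes 2- to 8-fold below both held it in 24 of 1041 (2.31%) and genes at least 8-fold below in 1 of 121 (0.826%). The shorter form AGGAAGT stood in 112 of 430 windows (26.0%) among the genes at least 8-fold above both, 293 of 3472 (8.44%) among those within 2-fold and 9.35% of all windows. Over the windows of all genes kept the share of GAGGAAGT was 296 of 9633 (3.07%), and 1052 of all 32851 windows held it. Windows were found for 330 of the 441 genes at least 8-fold above both (2.66% of the genes on the array) and for 90 of the 121 at least 8-fold below (0.729%). The C/EBP motif TTGCNNAA stood in 61 of 430 windows (14.2%) among the genes at least 8-fold above both and 263 of 3472 (7.57%) among those within 2-fold, and 10.8% of all windows. The letters CATTCC, bound by TEAD factors, stood in 14.2% of windows in the first class, 10.6% in the class within 2-fold and 14.7% of all windows. These shares are descriptions of letters in a window and were given no test.

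**Figure D1:**
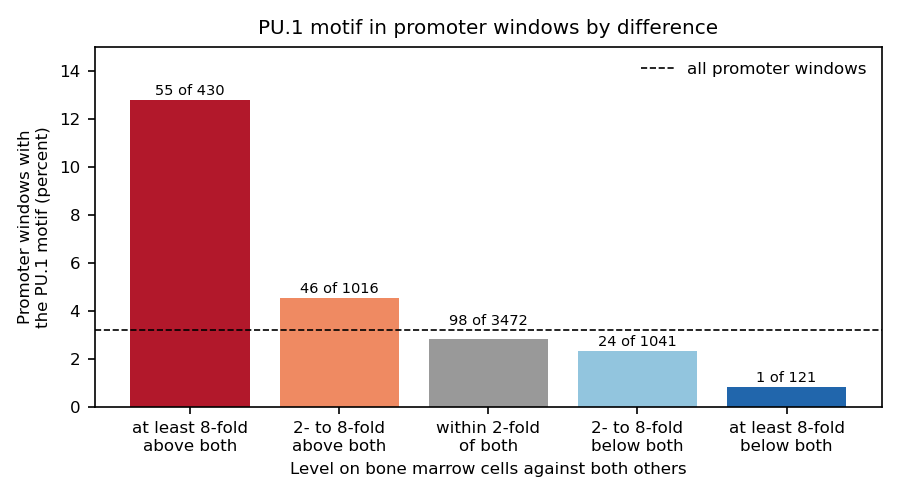
Share of promoter windows (percent, vertical axis) that hold GAGGAAGT on either strand, for 5 classes of genes by their level on bone marrow cells against both fibroblasts and neural stem cells, with the number of windows above each bar and the share of all windows as a dashed line. The share is 12.8% in the class highest on bone marrow cells, against 2.82% among genes within 2-fold of both, and 0.826% in the class lowest on them.

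Spi1, the gene of PU.1, was at 10.73 on bone marrow cells, against 4.64 on both fibroblasts and neural stem cells, where it was not detected. On the later bone marrow arrays it was at 10.70, 10.60 and 10.03 at 6, 12 and 24 h. None of the 12 fibroblast and neural stem cell arrays was above 4.99, and the difference was at least 32.9-fold. In the limma fit over the 5 arrays at 0 h, Spi1 differed by 6.02 ± 0.30 (SE) from fibroblasts with an adjusted p of 0.000672. Cebpa, the factor of early granulocyte commitment, was at 9.32 on bone marrow cells, against 5.20 on fibroblasts and 5.02 on neural stem cells. Cebpe, the factor of late granule genes, was at 7.90, against 4.35 and 4.43. Cebpb did not follow them, with 12.48 on bone marrow cells and 12.19 on fibroblasts. Of 32 blood transcription factors with a probe, 23 were detected on bone marrow cells, 10 on fibroblasts and 3 on neural stem cells, and 18 were at least 2-fold above both others, as were 8.29% of all genes on the array. Without background correction the 18 fell to 10. Irf5 and Irf8, interferon regulatory factors of myeloid cells, were at least 58.3-fold and 11.3-fold higher. Lmo2, an adaptor of blood stem cell transcription complexes, was at 12.57, against 4.61 on fibroblasts and 6.13 on neural stem cells.

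Across all probes, 1966 (14.9% of those kept) were at least 2-fold above both other cell types and 1532 (11.6%) at least 2-fold below both. A difference of 8-fold or more was reached by 575 probes (4.34%) upwards and 147 (1.11%) downwards. Detection on bone marrow cells alone was found for 1286 probes (9.72%), and 724 (5.47%) were detected on both others and not on bone marrow cells. With the wild-type lines as the other cells, 2011 probes were higher and 1603 lower, of which 1705 and 1074 were shared with the first counts. Within 2-fold of both lay 4834 probes (36.5%). Between bone marrow cells and fibroblasts 5475 probes (41.4%) differed 2-fold, and between bone marrow and neural stem cells 6716 (50.7%). For scale, TO_BMC_0 and the bone marrow arrays at 6, 12 and 24 h differed 2-fold in 90, 127 and 298 probes.

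A fit with limma over the 5 arrays at 0 h, with wild-type fibroblasts and neural stem cells as the second arrays, called 1514 probes (11.4%) higher and 827 (6.25%) lower than both at an adjusted p under 0.05 in each contrast. The spread in that fit is the difference between a transgenic and a wild-type line, with 2 residual degrees of freedom, and the single bone marrow array is assumed to vary like the others. Its p-values therefore do not measure variation between bone marrow cultures. Of the 1966 probes 2-fold above both, 1507 were also called higher by the fit, and of the 1532 below both, 823 were called lower. The fit includes the arrays that defined these probes, so the overlap is not an independent check and nothing is read from it. The 4 bone marrow arrays lay at least 2-fold above all 12 fibroblast and neural stem cell arrays for 1114 probes (8.42%) and at least 2-fold below all 12 for 529 of the 13236 kept. Leaving out either fibroblast array lowered the counts of the fit by over 1.5 times, to 951 higher and 442 lower without TO_MEF_0 and to 986 and 397 without Ctrl_MEF_0.

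**Figure D2:**
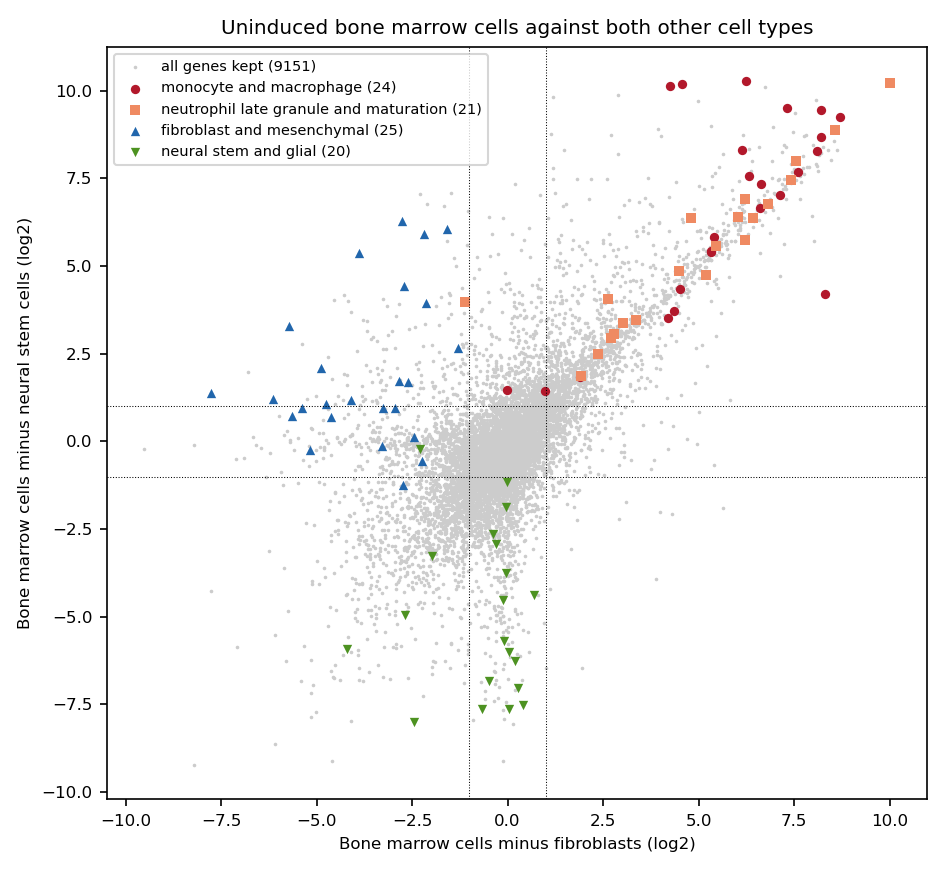
Difference between bone marrow cells and fibroblasts (horizontal axis, log2) and between bone marrow cells and neural stem cells (vertical axis, log2) for 9151 genes on the 0 h arrays, with dotted lines at 2-fold. Macrophage and late neutrophil markers sit mostly at the upper right, above both other cell types, fibroblast markers to the left and neural markers at the bottom.

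The culture carried the general markers of leukocytes. Of 23 pan-leukocyte genes with a probe, 22 were detected on bone marrow cells, 7 on fibroblasts and 0 on neural stem cells, and 22 were at least 2-fold above both others, against 8.29% of all genes. Detection on bone marrow cells alone was found for 15 of the 23, and for 5.05% of all genes. All 22 were called higher by the limma fit, as were 11.7% of the genes kept, and 20 lay at least 2-fold above all 12 other arrays on all 4 bone marrow arrays, as did 4.81% of all genes on the array. Tyrobp, the DAP12 adaptor of activating myeloid receptors, was at 12.63 on bone marrow cells, 4.55 on fibroblasts and 4.79 on neural stem cells. Laptm5, a lysosomal protein of blood cells, was at 14.79 on bone marrow cells, 8.05 on fibroblasts and 4.68 on neural stem cells. Both were highest on bone marrow cells, and Laptm5 was also detected on fibroblasts. The probe of Ptprc, the common leukocyte antigen CD45, was dim, at 6.27 on bone marrow cells, 4.40 on fibroblasts and 5.17 on neural stem cells. In the limma fit it was 1.70 ± 0.41 (SE) above fibroblasts with an adjusted p of 0.0363. Cd48 was the member not detected. Over the 14 lists of blood lineage markers, 152 of 263 genes with a probe were detected on bone marrow cells, 45 on fibroblasts and 20 on neural stem cells. Over all genes on the array these shares were 45.2%, 43.5% and 44.7%. Of the 263, 129 were at least 2-fold above both at 0 h and 88 were so on all 4 bone marrow arrays against all 12 others.

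**Figure D3:**
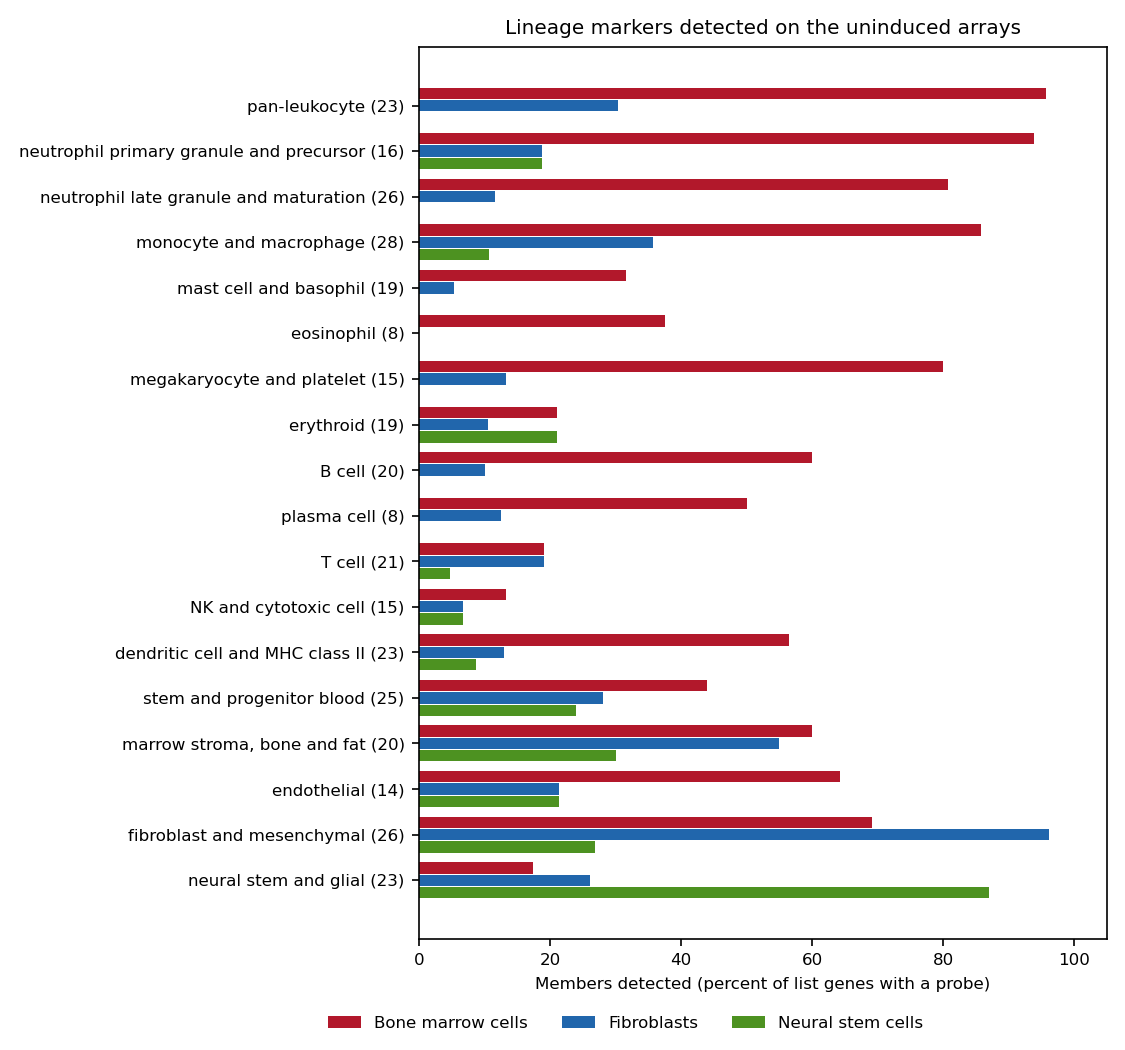
Share of each list's genes with a probe (percent, horizontal axis; number of genes in brackets) that were detected on bone marrow cells, fibroblasts and neural stem cells at 0 h, for 14 blood lists and 4 lists of stroma, endothelium, fibroblasts and neural cells. Pan-leukocyte, neutrophil, macrophage and megakaryocyte lists are mostly detected on bone marrow cells, while T cell, NK and erythroid lists are at 4 of 21, 2 of 15 and 4 of 19.

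Macrophage genes were detected for most members and with large differences. Of 28 monocyte and macrophage genes with a probe, 24 were detected on bone marrow cells, 10 on fibroblasts and 3 on neural stem cells, and 22 (78.6%, against 8.29% of all genes) were at least 2-fold above both. Of the 28, 20 were so on all 4 bone marrow arrays against all 12 others, as were 4.81% of all genes. C1qc, a chain of complement C1q, was at 14.02 on bone marrow cells, 5.82 on fibroblasts and 4.57 on neural stem cells, at least 293-fold higher. Trem2, a lipid-sensing receptor of macrophages, was at 13.77, 5.07 and 4.50 on the same arrays, at least 270-fold higher. Adgre1, the F4/80 antigen, was at 12.39, 4.79 and 4.71. These 3 genes kept their level on all 4 bone marrow arrays, Adgre1 between 12.06 and 12.39. Mrc1, the mannose receptor, was at 12.17 on bone marrow cells, against 5.84 on fibroblasts and 4.59 on neural stem cells. Ccr2, Marco, Msr1 and Cd5l were not detected on any of the 3 arrays, so a silent probe and absent RNA cannot be told apart for them. Vcam1, an adhesion molecule of macrophages and stroma, was at 11.15 on bone marrow cells, 11.16 on fibroblasts and 9.67 on neural stem cells, and so was not 2-fold above both.

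Part of this list was also seen on fibroblasts. Lyz1, Gpnmb and Lyz2 were at 14.92, 14.81 and 14.73 on bone marrow cells, against 10.68, 10.24 and 8.48 on TO_MEF_0, where all 3 were among the 10 members detected. The wild-type fibroblast array was higher than TO_MEF_0 for each of them, with 12.15, 11.43 and 10.04. Adgre1 was at 7.36 there. The summed linear signal of the members kept was 212900 to 219600 on the 4 bone marrow arrays, 4617 to 13230 on the 6 fibroblast arrays and 2348 to 14800 on the 6 neural stem cell arrays, where Apoe, a lipoprotein also made by neural cells, was detected. The part of such cells in the differences was not tested. In bulk RNA, fewer cells of a type and less RNA per cell cannot be told apart.

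The equipment of phagocytes accompanied these markers. Of 24 Fc and other activating or inhibitory myeloid receptors and their signalling partners, 21 were detected on bone marrow cells, 2 on fibroblasts and 1 on neural stem cells, and 20 (83.3%, against 8.29% of all genes) were at least 2-fold above both. Fcgr4 and Fcgr3, activating receptors for IgG, were at 12.98 and 12.91 on bone marrow cells and were not detected on the other 2 arrays. Among 20 pattern recognition receptors and adaptors, 18 were detected and 17 (85.0%, against 8.29%) were at least 2-fold above both others. Tlr13, a sensor of bacterial ribosomal RNA in mice, was at 12.94, 4.75 and 4.71 on bone marrow cells, fibroblasts and neural stem cells. Tlr3 and the inflammasome sensor Nlrp3 were not detected. Of 8 genes for the phagocyte oxidase and related killing, 6 (75.0%) were at least 2-fold above both. Ncf4, the p40-phox subunit, was at 12.21 on bone marrow cells, against 4.53 on fibroblasts and 4.81 on neural stem cells, while the probe of the catalytic subunit Cybb was not detected.

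RNA of neutrophil primary granule and precursor genes was detected on bone marrow cells. The presence of precursor cells was not tested. Of 16 primary granule and precursor genes, 15 were detected on bone marrow cells, 3 on fibroblasts and 3 on neural stem cells, and 13 (81.2%, against 8.29% of all genes) were at least 2-fold above both. Over all 4 bone marrow arrays against all 12 others 4 of the 16 were, as were 4.81% of all genes. Mpo, myeloperoxidase, was at 11.72 on bone marrow cells, 4.73 on fibroblasts and 4.68 on neural stem cells. Elane, neutrophil elastase, was at 10.31, 4.81 and 4.62, and Prtn3, proteinase 3, at 9.81, 4.55 and 4.59. None of these was detected on any of the other arrays at 0 h. Calr, a chaperone of the endoplasmic reticulum that the list also held, was lower than both, with 8.36 on bone marrow cells, 11.47 on fibroblasts and 9.40 on neural stem cells. On the bone marrow arrays at 6, 12 and 24 h Mpo was at 10.83, 8.48 and 5.24, so that the 0 h array was its highest and the last one did not detect it.

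Genes of maturing neutrophils stood far above both other cell types. Of 26 with a probe, 21 were detected on bone marrow cells, 3 on fibroblasts and 0 on neural stem cells. At least 2-fold above both were 20 (76.9%, against 8.29% of all genes). Of the 26, 15 were so over all 4 bone marrow arrays against all 12 others, as were 4.81% of all genes. S100a8, a subunit of calprotectin, was at 14.54 on bone marrow cells, 4.54 on fibroblasts and 4.32 on neural stem cells, a difference of at least 464-fold. In the limma fit it differed by 10.03 ± 0.30 (SE) from fibroblasts and by 10.22 ± 0.30 from neural stem cells, with adjusted p of 0.000672 and 0.000418. Ltf, lactoferrin, was at 12.42, 4.86 and 4.42, and Camp, the cathelicidin antimicrobial peptide, at 10.86, 4.44 and 4.49. Cxcr2, the chemokine receptor of blood neutrophils, was at 7.81, against 4.45 and 4.33. The members detected thus included genes of later granules and of late maturation, while the late granule collagenase Mmp8, Padi4 and Il1r2 were not detected. Anxa1 was the member detected without a 2-fold difference upwards, at 8.49 on bone marrow cells and 9.60 on fibroblasts.

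Megakaryocyte and platelet genes were also detected. Of 15 with a probe, 12 were detected on bone marrow cells, 2 on fibroblasts and 0 on neural stem cells, and 11 (73.3%, against 8.29% of all genes) were at least 2-fold above both. Over all 4 bone marrow arrays against all 12 others 5 of the 15 were, as were 4.81% of all genes. Pf4, platelet factor 4, was at 11.53 on bone marrow cells, 4.56 on fibroblasts and 4.46 on neural stem cells. Ppbp, pro-platelet basic protein, was at 9.63, 5.14 and 4.34, and Itga2b, the platelet integrin αIIb, at 9.10, 5.93 and 5.10. These genes differed in their course on the later arrays: Pf4 was still at 11.62 at 24 h, where Ppbp was at 6.13 and Itga2b at 6.02. Itgb3, the partner of Itga2b, was not detected.

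Mast cell, basophil and eosinophil genes were seen in part. Of 19 mast cell and basophil genes, 6 were detected (31.6%, against 45.2% of all genes) and 4 (21.1%, against 8.29%) were at least 2-fold above both. Prss34, a basophil and mast cell protease, was at 9.29 on bone marrow cells, against 4.60 on fibroblasts and 4.61 on neural stem cells, and Cpa3, the mast cell carboxypeptidase, was at 7.43, 4.47 and 4.38. The connective tissue mast cell proteases Cma1, Mcpt4 and Tpsb2 were not detected. Of 8 eosinophil genes, 3 were detected and at least 2-fold above both (37.5%), and 1 was without background correction or with an offset of 50. Prg2, the major basic protein, was at 10.39, 4.54 and 4.68. Over all 4 bone marrow arrays against all 12 others, 0 members of either list were 2-fold higher, against 4.81% of all genes. Epx and Siglecf were not detected. At 24 h Prss34 and Cpa3 were at 4.76 and 4.92 on bone marrow cells and Prg2 at 5.54.

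B cell genes were detected in part, and T cell, NK and erythroid genes were few. Of 20 B cell genes, 12 were detected on bone marrow cells (60.0%, against 45.2% of all genes), 11 of them there alone, and 9 (45.0%, against 8.29%) were at least 2-fold above both others. That count fell to 5 without background correction. Of the 20, 5 were 2-fold higher over all 4 bone marrow arrays against all 12 others, as were 4.81% of all genes. Cd79b and Cd79a, the signalling chains of the B cell receptor, were at 8.46 and 7.14 on bone marrow cells, against 4.54 and 4.41 on fibroblasts and 4.62 and 4.58 on neural stem cells. Ms4a1 (CD20), Pax5, Rag1 and Rag2 were not detected. Il7r, which the list also held, was at 10.27, 4.54 and 4.78. Of 21 T cell genes 4 were detected on bone marrow cells, 3 of them there alone, and as many as 4 on fibroblasts. Cd28, a costimulatory receptor, was at 8.18, 4.51 and 4.55, and Cd4 at 6.19, 4.39 and 4.47. Among the other members, Cd3e, Cd3g, Cd8a and Cd5 were not detected on bone marrow cells. Cd3e was detected on fibroblasts, at 6.13, and Thy1 was at 6.16 on bone marrow cells and 13.92 on fibroblasts, so single members of this list were not specific to T cells here. Of 15 NK and cytotoxic genes 2 were detected (13.3%), Ccl5 at 8.01 and Prf1 at 7.37, the second of them also on fibroblasts at 6.98 and neural stem cells at 8.57. Of 19 erythroid genes 4 were detected on bone marrow cells (21.1%), and 4 on neural stem cells. Hba-a1, an alpha globin, was at 9.39, 4.50 and 4.54, whereas Gata1, Klf1, Alas2 and the beta globin probes were not detected.

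Genes of MHC class II presentation stood above both other cell types, and those of stem cells were mixed. Of 23 dendritic cell and MHC class II genes, 13 were detected on bone marrow cells, 3 on fibroblasts and 2 on neural stem cells, and 12 (52.2%, against 8.29% of all genes) were at least 2-fold above both. Cd74, the invariant chain, was at 13.53 on bone marrow cells, 5.13 on fibroblasts and 5.21 on neural stem cells, and H2-Ab1 at 13.11, 4.49 and 4.81. Among the dendritic cell members, Itgax, Flt3, Siglech, Xcr1, Clec9a and Zbtb46 were not detected on bone marrow cells. Batf3, Cd80, Cd83, Cd86, Clec10a and Ccl17 were among the 15 members of the list kept, as was Zbtb46. On bone marrow cells 13 of those 15 were detected, so the dendritic cell members were mixed. The presence of dendritic cells was not tested. Of 25 stem and progenitor genes, 11 were detected on bone marrow cells (44.0%, against 45.2% of all genes) and 6 (24.0%, against 8.29%) were at least 2-fold above both, among them Lmo2, Lyl1 and Hhex. Cd34, Myb, Hlf, Procr and Erg were not detected. Meis1, a homeobox factor that blood stem cells share with many embryonic tissues, was lower than both others by at least 7.36-fold, and was at 9.88 on fibroblasts and at 10.76 on wild-type neural stem cells.

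**Figure D4:**
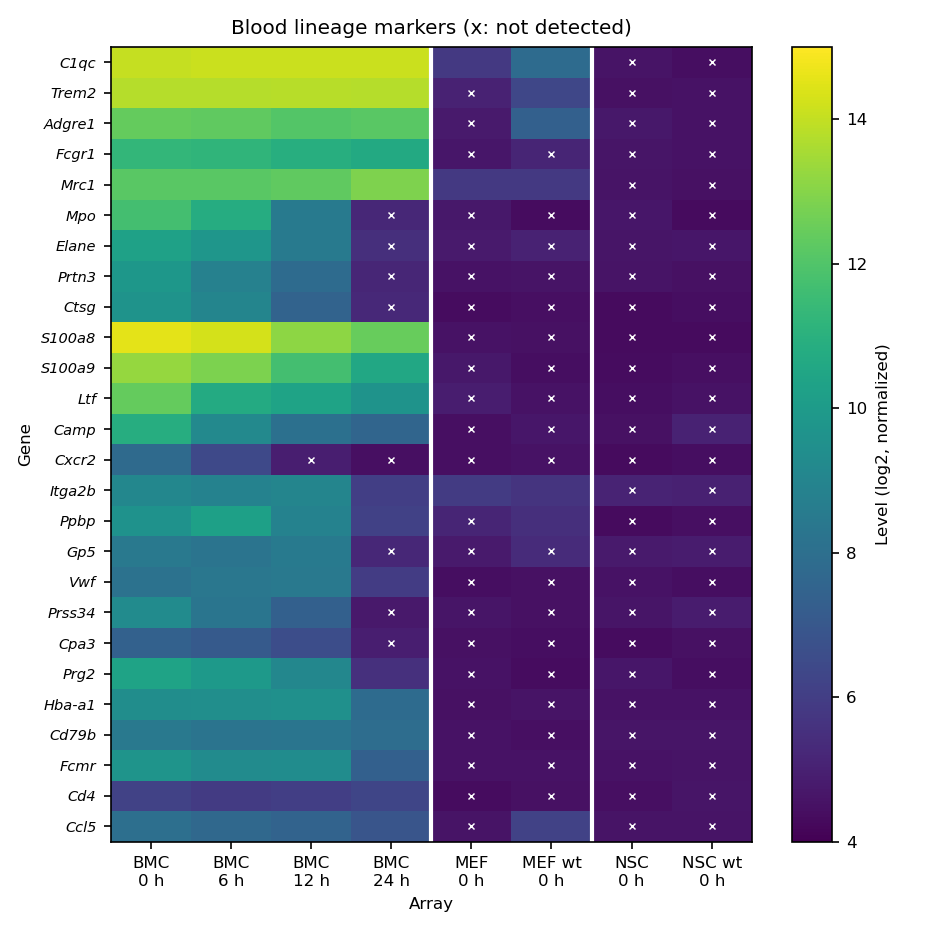
Normalized log2 levels (colour) of 26 blood lineage markers on the 4 bone marrow arrays (0, 6, 12 and 24 h), the transgenic and wild-type (wt) fibroblast arrays (MEF) and the transgenic and wild-type neural stem cell arrays (NSC) at 0 h, with a cross where the probe was not detected. Macrophage genes at the top are bright on all 4 bone marrow arrays, and Mpo, Elane, Prtn3, Ctsg, Prss34 and Cpa3 are not detected on the bone marrow array at 24 h.

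Receptors for blood cytokines and chemoattractants were higher on bone marrow cells for many members. Of 23 cytokine receptors, 16 were detected on bone marrow cells and 13 (56.5%, against 8.29% of all genes) were at least 2-fold above both. Csf3r, the G-CSF receptor, was at 9.90 on bone marrow cells, 4.71 on fibroblasts and 5.16 on neural stem cells. Csf2ra, the GM-CSF receptor α chain, was at 11.07, 6.99 and 6.82, and Il10ra at 10.38, 4.34 and 4.35. The receptors for interleukin 5 and erythropoietin (Il5ra and Epor) were not detected. Of 21 chemoattractant receptors, 10 were detected on bone marrow cells, 0 on fibroblasts and 1 on neural stem cells. The share detected on bone marrow cells (47.6%) was near that of all genes (45.2%), and all 10 were at least 2-fold above both, against 8.29%. Fpr2, a formyl peptide receptor, was at 11.93, 4.38 and 4.46. Cxcr4, the receptor of Cxcl12, was at 10.61 on bone marrow cells, 4.70 on fibroblasts and 6.61 on neural stem cells. Of 16 leukocyte adhesion genes 9 (56.2%) were at least 2-fold above both, with Selplg, the P-selectin ligand, at 11.80, 4.54 and 4.52. Cd44 was at 10.85 on bone marrow cells and 10.61 on fibroblasts.

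Genes of MHC class I presentation were higher for most members. Of 16 with a probe, 13 (81.2%, against 8.29% of all genes) were at least 2-fold above both, and the limma fit called 13 higher. B2m, the light chain of class I, was at 14.59 on bone marrow cells, 12.83 on fibroblasts and 11.46 on neural stem cells. H2-T23 was at 13.39, 6.80 and 7.07, and the immunoproteasome subunit Psmb9 at 11.10, 4.71 and 4.71. Nlrc5, the activator of class I genes, was at 8.87 on bone marrow cells and was not detected on the other 2.

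The 15 genes with the largest differences over both others were taken outside the lists, except that 5 of them belong to lists added after seeing the data (Ccl4 and Ccl8 to chemokines, Irf7, Ifi27l2a and Oas1g to the interferon response). They were chosen for these values, which are a description. Their levels ran from 11.96 to 13.73 on bone marrow cells, from 4.37 to 6.21 on fibroblasts and from 4.30 to 5.29 on neural stem cells, with lower bounds of 77.1- to 184-fold. All 15 lay at least 2-fold above the 12 other arrays on the 4 bone marrow arrays, a count that includes the arrays that chose them. Ms4a6d, a membrane protein of macrophages, was at 13.73, 6.21 and 4.37 and is the member that was detected on fibroblasts. Aif1, the calcium-binding protein Iba1 of macrophages and microglia, was at 12.82, 4.68 and 4.65. Siglec1, the sialoadhesin of tissue macrophages, was at 12.05, 4.37 and 4.33, and the folate receptor Folr2 at 12.30, 4.41 and 4.47. The chemokines Ccl4 and Ccl8 were at 13.14 and 12.17 on bone marrow cells. The interferon-response genes Irf7 and Ifi27l2a were at 11.96 and 12.67, Oas1g was at least 159-fold higher, and the unconventional myosin Myo1f, Cd84, Ly9, Slc15a3, Wfdc17 and Pld4 completed the group.

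The bone marrow culture also carried matrix and stromal RNA. Of 26 fibroblast and mesenchymal genes, 18 were detected on bone marrow cells (69.2%, against 45.2% of all genes), 25 on fibroblasts and 7 on neural stem cells. At least 2-fold above both were 0, against 8.29% of all genes. Dcn, the proteoglycan decorin, was at 10.46 on bone marrow cells, 12.05 on fibroblasts and 4.39 on neural stem cells. Col6a1, a collagen VI chain, was at 11.30, 13.50 and 5.37, and Lox, the collagen cross-linking enzyme, at 10.96, 13.74 and 4.69. These genes lay below the fibroblasts and far above the neural stem cells. Col1a1, a fibrillar collagen chain, was at 7.94 on bone marrow cells, against 13.65 on fibroblasts and 4.66 on neural stem cells, and Col1a2, Col3a1, Lum, Twist2 and Tagln were not detected. Summed over the members kept, the list reached 10890 to 19180 on the 4 bone marrow arrays, 133900 to 180200 on the 6 fibroblast arrays and 8812 to 27320 on the 6 neural stem cell arrays. Cxcl12, the chemokine with which marrow stroma retains blood cells, was at 11.43, 12.77 and 6.41.

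Of 20 genes of marrow stroma, bone and fat, 12 were detected on bone marrow cells (60.0%, against 45.2% of all genes), 11 on fibroblasts and 6 on neural stem cells. At least 2-fold above both were 3 of the 20 (1 without background correction), against 8.29% of all genes. They were Eng at 9.19, Ibsp, a bone sialoprotein, at 6.72 and Adipoq, the fat cell hormone adiponectin, at 6.08. At 24 h Ibsp and Adipoq were at 5.16 and 4.62. Lepr, Bglap, Fabp4 and Postn were not detected on any of the 3 arrays. Kitl was not detected on bone marrow cells, but was detected elsewhere among the 3 arrays. Among 14 endothelial genes 9 (64.3%, against 45.2% of all genes) were detected on bone marrow cells. Fibroblasts and neural stem cells each detected 3. At least 2-fold above both were 3 (21.4%, against 8.29% of all genes). The 9 detected were Pecam1, Tek, Emcn, Flt1, Esam, Robo4, Plvap, Egfl7 and Icam2. Cdh5, Kdr, Tie1, Sox17 and Sox18 were not detected on any of the 3 arrays. The presence of endothelial cells was not tested. The part of stromal cells in the bone marrow levels was not tested.

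The genes lower on bone marrow cells included members of the matrix, cell junction, Hippo and imprinted groups. At least 2-fold below both others were 7 of 31 collagen and matrix genes and 6 of 22 junction and cadherin genes. So were 4 of 22 genes of the YAP and SRF group and 3 of 18 imprinted genes, against 6.64% of all genes on the array. The YAP and SRF group holds pathway factors, such as Tead2 and Yap1, beside targets. With the wild-type lines as the other cells the collagen count was 4 and the imprinted count 6, and without background correction the junction count was 3. Of the junction genes, 5 were detected on both others and not on bone marrow cells, as were 2.91% of all genes. Fbln2, an extracellular fibulin, was at 5.96 on bone marrow cells, 13.72 on fibroblasts and 10.22 on neural stem cells. Cdh2, N-cadherin, was not detected on bone marrow cells at 4.59, against 6.86 on fibroblasts and 6.56 on neural stem cells, and Ncam1 was at 4.45, 8.65 and 10.38. Gja1, connexin 43, was detected on all 3 and lower, at 10.13, 12.55 and 12.92. Tead2 and Yap1, a DNA-binding factor and its co-activator in the Hippo pathway, were at 6.42 and 5.78 on bone marrow cells, against 11.11 and 9.55 on fibroblasts and 11.69 and 8.64 on neural stem cells. Both were at least 7.22-fold lower. Mest, an imprinted gene of embryonic growth, was not detected at 4.63, against 9.78 and 12.50.

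The 15 genes with the largest falls below both others, taken outside the lists, were detected on all 12 fibroblast and neural stem cell arrays. Of these 15, 10 were not detected on TO_BMC_0, and all 15 lay at least 2-fold below the other arrays on the 4 bone marrow arrays (2.37% of all genes did). The 15 were chosen on arrays that are part of that count, so nothing is read from it. Ptn, the heparin-binding growth factor pleiotrophin, was at 5.07 on bone marrow cells, 13.28 on fibroblasts and 14.29 on neural stem cells, at least 219-fold lower. It was between 4.69 and 5.15 on the 4 bone marrow arrays and between 12.56 and 14.30 on the 12 others. Fez1, an adaptor of axonal transport, was at 4.33, 10.43 and 12.95, and Nr2f1, the nuclear receptor COUP-TFI, at 4.56, 9.58 and 12.28. Snrpn, an imprinted splicing gene, was at 4.51, 9.59 and 11.45. F2r, the thrombin receptor PAR1, was still detected on bone marrow cells, at 8.64, 14.39 and 13.47. Wasf1, an actin regulator of the WAVE complex, was at 5.20, 9.81 and 11.75, and Wnt5a, a secreted Wnt ligand, at 5.76, 10.42 and 10.50. The other members were Fxyd6, Ddah1, Fhl1, Arxes2, Meis2, Aif1l, Nrep and Igfbp2. Aif1l and Aif1, a pair of related genes, ran in opposite directions, with Aif1l at 4.61 on bone marrow cells, 9.76 on fibroblasts and 11.79 on neural stem cells.

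**Figure D5:**
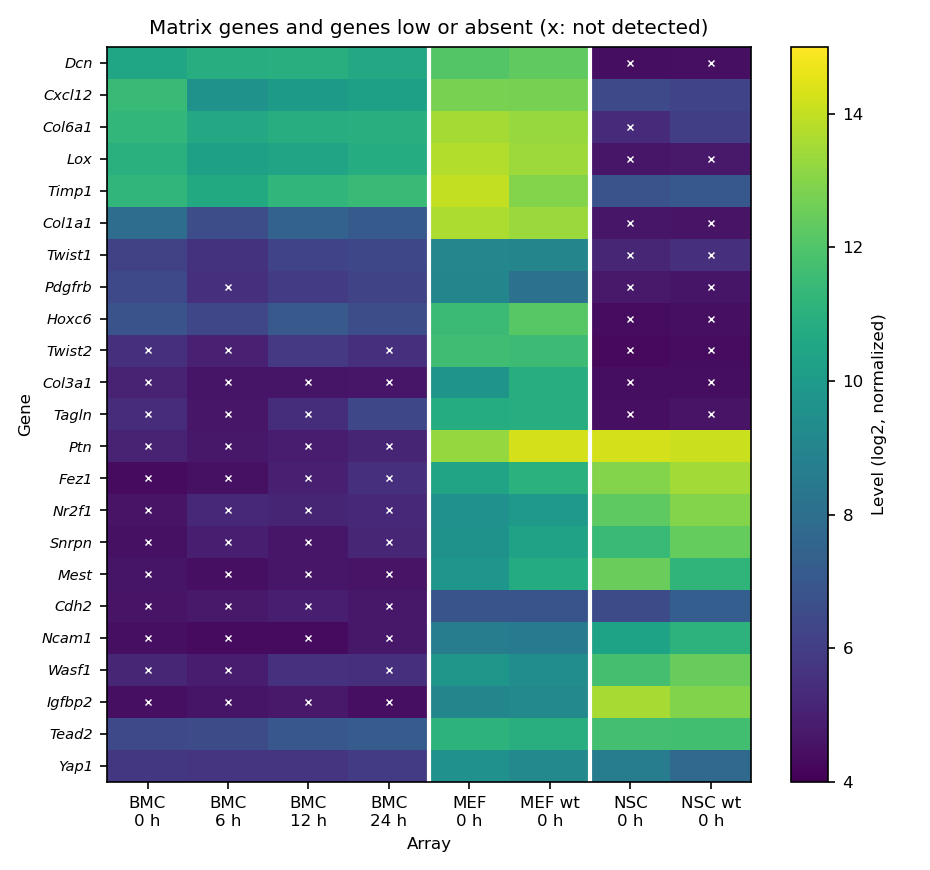
Normalized log2 levels (colour) of matrix genes and of genes low or not detected on bone marrow cells, on the 4 bone marrow arrays, the fibroblast arrays (MEF; wt is wild-type) and the neural stem cell arrays (NSC) at 0 h, with a cross where the probe was not detected. Dcn, Cxcl12, Col6a1, Lox and Timp1 lie between fibroblasts and neural stem cells, and Ptn, Fez1, Nr2f1, Snrpn and Mest are not detected on any of the 4 bone marrow arrays.

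Neural and positional identity genes were mostly not detected. Of 23 neural stem and glial genes, 4 were detected on bone marrow cells (17.4%, against 45.2% of all genes), 6 on fibroblasts and 20 on neural stem cells. Sox2, Olig1 and Hes5 were at 4.55, 4.50 and 4.44 on bone marrow cells, none detected, against 9.08, 12.13 and 10.46 on neural stem cells. Of 38 Hox genes, which record position along the body axis, 7 (18.4%) were detected on bone marrow cells, 18 on fibroblasts and 4 on neural stem cells. Hoxc6 was at 6.80 on bone marrow cells, 11.50 on fibroblasts and 4.38 on neural stem cells, and Hoxb4 at 7.09, 7.52 and 4.30. Hoxa9 was not detected on bone marrow cells.

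Cell cycle genes were detected, and part of them were lower. Of 27 with a probe, 23 were detected on bone marrow cells, 24 on fibroblasts and 25 on neural stem cells, and 14 were at least 2-fold below both others (51.9%, against 6.64% of all genes), of which the limma fit called 6. With the wild-type lines as the other cells 8 were lower and 1 was higher. On all 4 bone marrow arrays 1 lay 2-fold below all 12 other arrays, as did 2.37% of all genes. Plk1, a mitotic kinase, was at 7.97 on bone marrow cells, 11.34 on fibroblasts and 11.79 on neural stem cells. Cdc20, an activator of the anaphase-promoting complex, was at 8.40, 11.58 and 11.94, and Ccnd2, a D-type cyclin, at 8.69, 13.04 and 12.23. Mcm6, a subunit of the replicative helicase, was within 2-fold of both, at 10.58, 10.54 and 11.17. Rrm2, a subunit of ribonucleotide reductase, was at 6.59 on bone marrow cells, against 9.48 on transgenic and 7.76 on wild-type fibroblasts. Of 21 ribosomal protein genes, 18 were detected on each of the 3 arrays, and Rplp0 was the member more than 2-fold below both (2 members were with the wild-type lines), at 8.11, 10.32 and 9.68.

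Some genes joined bone marrow cells with 1 of the other cell types. The 5 most above neural stem cells while within 2-fold of fibroblasts were Ahnak, Tgfbi, Emp1, Rnase4 and Tspo. Ahnak, a large scaffold protein, was at 11.84 on bone marrow cells, 11.65 on fibroblasts and 4.49 on neural stem cells. Tgfbi, a matrix protein induced by TGF-β, was at 11.54, 10.68 and 4.53. Emp1 was at 14.04, 14.52 and 7.65, but at 11.17 on wild-type neural stem cells. The 5 most above fibroblasts while within 2-fold of neural stem cells were Aatk, Prex1, Vav3, P2ry1 and Rassf2. Prex1, a Rac exchange factor of neutrophils and neurons, was at 10.01 on bone marrow cells, 5.01 on fibroblasts and 9.16 on neural stem cells, and on the wild-type neural array at 8.94. P2ry1, an ADP receptor, was at 9.21, 4.53 and 9.12, but at 6.65 on wild-type neural stem cells.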

How the data were processed

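The authors' deposited table holds a linear intensity per probe and array, without normalization, and a detection p-value. Per the labels, 500 ng of total RNA was amplified to biotinylated cRNA. The authors' deposited series matrix holds log2 values, used as an alternative. BeadStudio 3.2, RMA and lumi are the tools listed in the submitters' processing notes, and their order and settings are not given in the sources used here. Symbols came from the platform annotation (23978 probes with 1 symbol, 1719 with none), and of 23962 symbols matched through Entrez numbers to the RefSeq genes of GRCm38.p6, 0 changed.

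Intensities were corrected with limma 3.58.1 (R 4.3.3) by normexp, with negative control values inferred from the detection p-values and an offset of 16, quantile-normalized over 17 arrays and taken to log2. Lists were counted over genes with a probe. Counts and classes use the measured values, and bounds apply to printed folds. Of 84 genes of the lists or named that lay 2-fold from both others and had further kept probes, 1 (Tyms) had a probe of the other sign. The fit over 5 arrays used lmFit and eBayes with cell type as the only term (2 residual, 3.25 prior degrees of freedom) and Benjamini-Hochberg adjustment over the 13236 probes kept. Named genes are list members, the 15 highest and 15 lowest against both others, the 5 nearest to each other cell type, Pou5f1 and Ptprc. Members and lists were chosen with earlier results of these data known, and 4 lists (interferon response, lysosome, chemokines, complement) after seeing the data. Replicates being absent, p-values measure the spread between lines.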

Additional observations from a re-analysis of the deposited data

How the results depend on the processing

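No paired analysis was possible because each group holds 1 array and all arrays carry the number 1. Against the 1966 probes higher and 1532 lower than both others, the authors' deposited log2 values gave 2215 and 1790, an offset of 50 gave 1598 and 1121, median scaling gave 2173 and 1201, quantile normalization over the 3 arrays alone gave 1962 and 1544, no filter on dim probes gave 1967 and 1554, and no background correction gave 1332 and 809. Requiring the 4 bone marrow arrays to clear all 12 others left 1114 higher and 529 lower. Wild-type lines as the other cells, an alternative added after seeing the data, gave 2011 higher and 1603 lower, of which 1705 and 1074 were shared with the first counts. Median scaling moved the median difference of all probes against fibroblasts to 0.15, against -0.09 with quantile normalization, and that against neural stem cells to -0.22, against -0.17. In the limma fit, leaving out each array of the other cells in turn gave 951 to 1379 higher and 397 to 768 lower, with the lowest counts without TO_MEF_0 (951 and 442) and Ctrl_MEF_0 (986 and 397). A genotype term gave 1213 and 600 with 1 residual degree of freedom. At an unadjusted p under 0.05 in both contrasts 2035 probes were higher and 1442 lower. Blood list members above both numbered 107 to 137 under the other scalings, background settings and wild-type lines, against 129, and 88 when the 4 bone marrow arrays had to clear all 12 others, an alternative for the lists added after seeing the data. Reversal of sign was checked for Pou5f1, Ptprc and the genes named as highest, lowest or nearest to 1 other cell type. It was checked under the authors' values and the other scalings and background settings alone, and not for counts or other list members. None of the checked genes that lay 2-fold from both others reversed. Most of these were chosen for the largest differences on the same arrays, so a reversal was hardly possible and nothing is read from it. Of 210 values of the checked genes, 95 moved by more than the spread between lines. Signal over background limits the rest: 895 of the 1966 higher probes were detected on bone marrow cells alone and 513 of the 1532 lower ones were not detected there, so their folds are bounds.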

Other observations

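Lists added after seeing the data described further sides of the bone marrow culture. Of 31 interferon response genes with a probe, 28 were detected on bone marrow cells, 11 on fibroblasts and 7 on neural stem cells, and 26 were at least 2-fold above both, against 8.29% of all genes on the array. Ifit3, a protein induced by type I interferon, was at 13.47 on bone marrow cells, 6.18 on fibroblasts and 5.06 on neural stem cells, and Rsad2, the antiviral enzyme viperin, at 11.85, 4.61 and 6.23. Usp18, a brake on interferon signalling, was at 6.44 on the transgenic and 8.92 on the wild-type fibroblasts, and Ifit3 was at 9.84 on the wild-type ones, still below bone marrow cells. Summed over the members kept, the list reached 60620 to 87990 on the 4 bone marrow arrays, 15620 to 25540 on the 6 fibroblast arrays and 5730 to 9201 on the 6 neural stem cell arrays.

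Lysosomal genes were detected in all 3 cell types and were higher on bone marrow cells. Of 29 with a probe, 27 were detected on bone marrow cells, 24 on fibroblasts and 22 on neural stem cells. Over all genes on the array these shares were 45.2%, 43.5% and 44.7%. Of the 29, 24 were at least 2-fold above both, against 8.29% of all genes. Lgmn, the asparagine protease legumain, was at 14.52 on bone marrow cells, 9.82 on fibroblasts and 9.45 on neural stem cells, and the acid lipase Lipa at 12.42, 7.70 and 7.09. Ctsb, cathepsin B, was at 14.69, 12.45 and 12.52. Lamp2 and Cd63 did not differ 2-fold from fibroblasts, with 12.49 and 14.40 on bone marrow cells and 12.74 and 14.09 on fibroblasts. Atp6v0d2 and Acp5, genes of osteoclasts, were not detected on bone marrow cells.

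Of 26 chemokines, 17 were detected on bone marrow cells (65.4%, against 45.2% of all genes). At least 2-fold above both were 11 (42.3%, against 8.29%), among them Ccl3 at 11.22, Ccl9 at 13.19 and Cxcl16 at 12.20. Cxcl1, a neutrophil attractant, was lower than on fibroblasts, at 5.57 on bone marrow cells against 8.05. Of 16 complement genes, 9 (56.2%, against 8.29% of all genes) were at least 2-fold above both. Vsig4, a complement receptor of tissue macrophages, was at 10.54, 5.26 and 4.41 on bone marrow cells, fibroblasts and neural stem cells. C1ra and C1s1, the proteases that partner C1q, and Hc, which encodes C5, were not detected.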
